A study of Mus musculus with 6 samples.

Results

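The 4 mouse Hox clusters were followed for ubiquitylated histone H2B (H2Bub), measured by chromatin immunoprecipitation and sequencing in growing C2C12 myoblasts (MB) and in C2C12 myotubes (MT). C2C12 cells are an established line of mouse muscle precursors, which stop dividing and fuse into multinucleate myotubes in low serum. The clusters were taken by position alone, on genome build mm9: Hoxa at chr6:52104000-52211000, Hoxb at chr11:96054000-96231000, Hoxc at chr15:102750000-102868000 and Hoxd at chr2:74504000-74605000. They held 100 of the 494499 bins of 5 kb that had reads on chromosomes 1 to 19 and X (21 in Hoxa, 35 in Hoxb, 24 in Hoxc and 20 in Hoxd), and the 100 kb on each side of each cluster held another 160. No annotation of build mm9 was used here, so the borders were not checked against gene models and no Hox gene was placed within its cluster.

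Per the labels, MB were collected at no more than 40% confluency in medium with 10% fetal bovine serum, and MT after 96 h in 2% horse serum. Each group had 3 libraries, made from chromatin digested with micrococcal nuclease and precipitated with an H2Bub antibody. The cell type label reads C2C12 while the source names read C1C12. Muscle marker genes could not be looked up without gene positions, so the identity of the cells rests on the labels. The labels do not say that the libraries of a group came from separate cultures, and p-values therefore measure no more than how far these libraries lie apart, and that distance may be technical. The labels give each library its own antibody lot number. These numbers are consecutive over the samples, so they may not be true lots, and if they are, lot and library cannot be told apart.

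Hox genes encode homeodomain transcription factors that give cells their position along the body axis. They lie in clusters in an order that matches where along the axis each gene is used, and most cells keep the part of a cluster that does not suit their position silent, often under Polycomb repression. H2Bub is laid down over the bodies of genes as they are transcribed, so its spread over a cluster marks the stretch where the mark has been placed. In the RefSeq gene table for build GRCm38, used here only for the names and order of genes, the clusters hold 39 Hox genes: 11 in Hoxa, 10 in Hoxb, 9 in Hoxc and 9 in Hoxd. Read by rising coordinate, Hoxb runs from Hoxb13 to Hoxb1, Hoxc from Hoxc13 to Hoxc4 and Hoxd from Hoxd13 to Hoxd1, whereas Hoxa ends with Hoxa13. The named protein-coding genes next to them in that table are Skap2 and Evx1 for Hoxa, Ttll6 and Skap1 for Hoxb, Calcoco1 and Smug1 for Hoxc, and Evx2 and Mtx2 for Hoxd, given in the same order.

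The clusters are ancient copies of each other, and some of their microRNAs share a seed. The same miR-196 seed is encoded in Hoxa, Hoxb and Hoxc, and the same miR-10 seed in Hoxb and Hoxd. The miR-196 seed thus sits in clusters that carried H2Bub peaks in myoblasts (Hoxa and Hoxc) and in one that carried none (Hoxb), while both clusters with the miR-10 seed carried none. A link between seed and H2Bub was not tested. The mature sequences are from RefSeq (GRCm38.p6), 5′ to 3′, with the seed (bases 2 to 8) in capitals.
miR-196b-5p, from Hoxa: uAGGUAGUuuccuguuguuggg
miR-196a-5p, from Hoxb and Hoxc: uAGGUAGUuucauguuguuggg
miR-10a-5p, from Hoxb: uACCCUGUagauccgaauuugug
miR-10b-5p, from Hoxd: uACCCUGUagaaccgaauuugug

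Reads on chromosomes 1 to 19 and X numbered 9285330, 10491948 and 15891204 in MB and 8759266, 9242611 and 14467774 in MT, and all levels are given as reads per 1000000 of these reads (RPM). Over the genome, 5 kb bins without a peak of either list had a median of 0.211 ± 0.0184 RPM per kb in MB and 0.376 ± 0.0123 in MT (SD, n = 3), so sequence outside peaks held a larger share of MT reads. Every increase in RPM below stands against that shift. No input library was analysed here, so levels at different places were not corrected for mappability, base composition or copy number. The median of peak-free bins on chromosome 15, which holds Hoxc, was 1.26 times the genome value in MB and 1.31 times in MT, whereas it was between 0.967 and 1.16 on chromosomes 6, 11 and 2.

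In myoblasts H2Bub marked Hoxa and Hoxc, and was at or below the level of peak-free sequence in Hoxb and Hoxd. The MB peak list held 16 peaks in Hoxa and 44 in Hoxc, and 0 in both Hoxb and Hoxd. Per 100 kb this was 14.95 peaks in Hoxa and 37.3 in Hoxc, against 7.25 over the genome. Peaks covered 5.27% of Hoxa and 14.2% of Hoxc, against 3.92% of chromosomes 1 to 19 and X. By bins, 8 of 21 in Hoxa (38.1%) and 14 of 24 in Hoxc (58.3%) held an MB peak, against 11.3% of all bins. The MT list held 1 peak in Hoxa, 3 in Hoxc and 0 in Hoxb and Hoxd, or 0.935 and 2.54 per 100 kb in the first pair against 0.976 over the genome. Each list is 1 set per group of unstated threshold, so these counts have no replicate error.

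**Figure D1:**
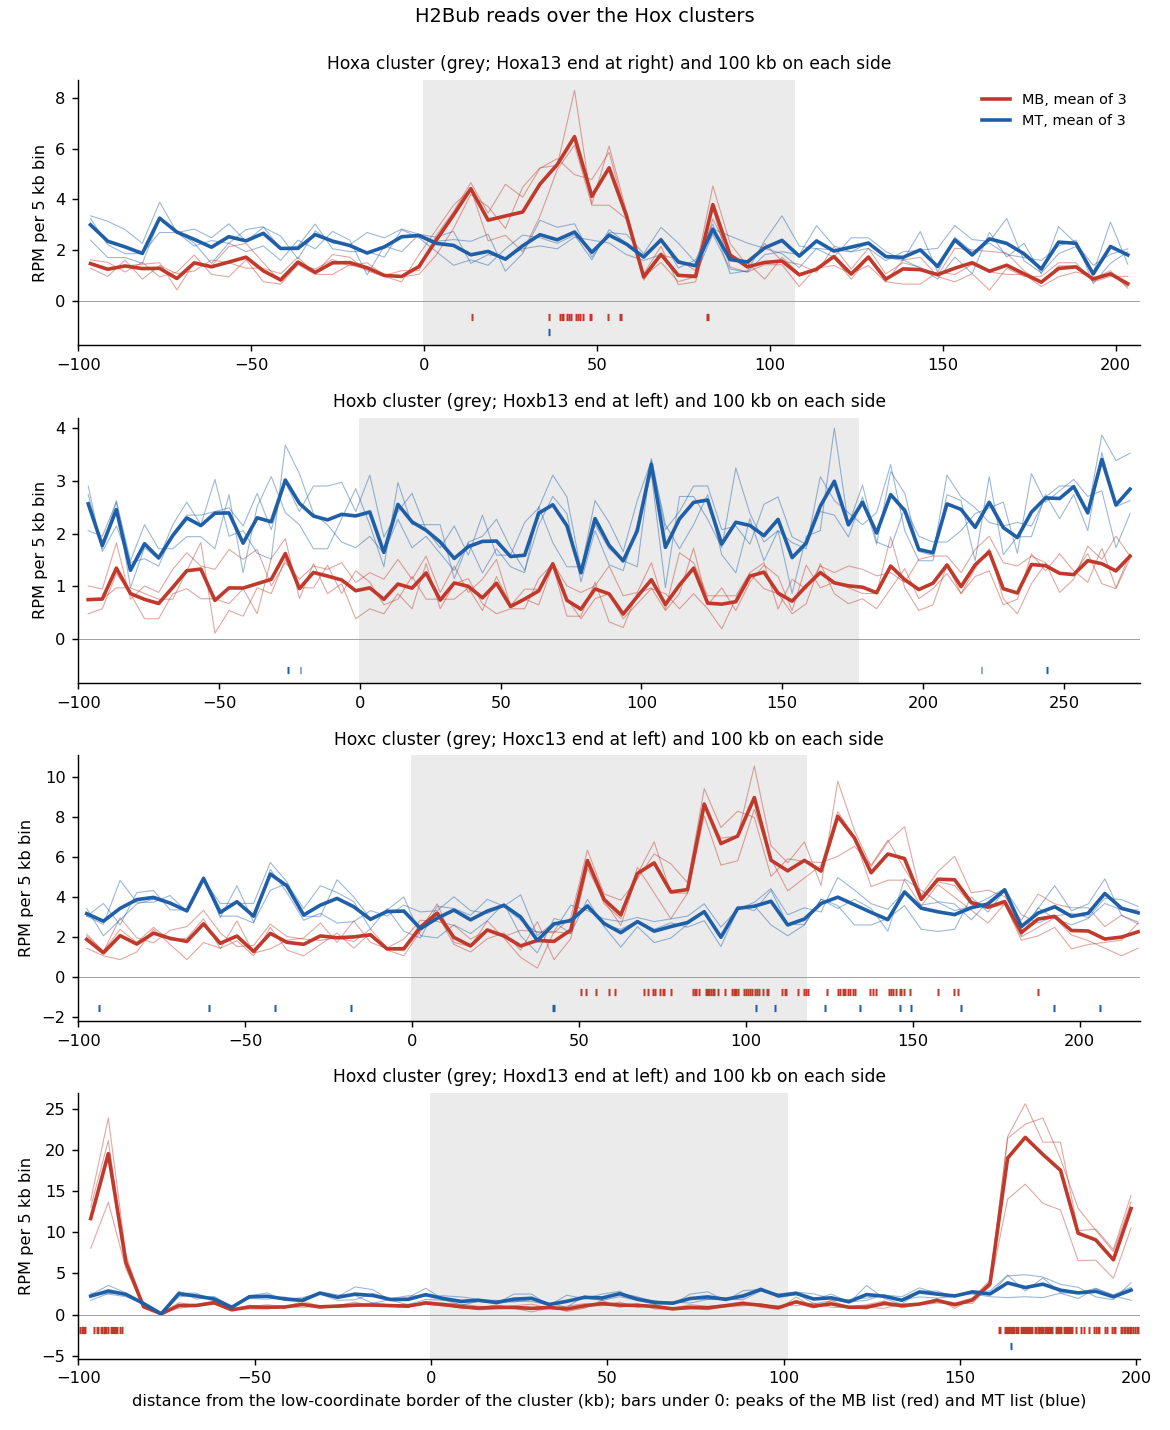
Reads per 5 kb bin (RPM, y axis, a separate scale for each cluster) against distance from the low-coordinate border (kb). Thin lines are single libraries, thick lines the means of 3, grey the cluster, and bars under 0 the peaks of each list. MB signal stands over the low-coordinate side of Hoxa and the Hoxc4 side of Hoxc, whereas Hoxb and Hoxd stay flat between MB peaks that flank Hoxd.

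Density over the whole cluster separated the clusters in the same way. In Hoxa it was 0.538, 0.616 and 0.661 RPM per kb in the 3 MB libraries and 0.379, 0.412 and 0.469 in the MT libraries. All MT libraries were thus below all MB libraries, with means of 0.605 ± 0.0625 and 0.420 ± 0.0457 (SD, n = 3; log2 ratio -0.53, SE 0.13). In Hoxc the MB libraries had 0.758, 0.851 and 0.908 RPM per kb and the MT libraries 0.571, 0.515 and 0.638. The MT libraries were again all below, at 0.575 ± 0.0614 against 0.839 ± 0.0758 (SD, n = 3; log2 ratio -0.55, SE 0.12). Hoxb went the other way, with 0.172, 0.156 and 0.225 RPM per kb in MB and 0.386, 0.405 and 0.454 in MT (log2 ratio 1.19, SE 0.17). Hoxd had 0.192, 0.175 and 0.220 in MB and 0.355, 0.373 and 0.431 in MT (log2 ratio 0.98, SE 0.13). In both, every MT library was above every MB library, as was the genome median of bins without a peak. With 3 against 3 libraries the smallest p is 0.1, which each of the 4 comparisons reached (exact permutation test, two-sided; 0.1 after adjustment over the 4 clusters), so none could pass 0.05. These densities rest on 180 to 1702 reads per cluster and library. In bulk chromatin, fewer marked cells and less mark per cell cannot be told apart.

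Read against the peak-free bins of their own chromosome, the 4 clusters stood far apart in myoblasts and close together in myotubes. In MB, Hoxa was at 3.00 ± 0.551 times and Hoxc at 3.19 ± 0.51 times that median, while Hoxb was at 0.761 ± 0.0447 and Hoxd at 0.867 ± 0.0532 (SD, n = 3). In MT the values were 1.12 ± 0.122 for Hoxa, 0.951 ± 0.0692 for Hoxb, 1.17 ± 0.164 for Hoxc and 0.937 ± 0.0917 for Hoxd. Over the whole genome, MB peaks held 34.6%, 38.8% and 31.5% of reads in the MB libraries and 9.46%, 6.65% and 9.24% in the MT libraries. A fall in sequence marked in MB was thus not particular to these clusters. The peaks were chosen on MB reads, however, so the direction of this genome-wide fall was in part fixed by that choice. A share of reads in peaks is also not the same measure as a density over a whole cluster. Among 25457 windows of 100 kb, the MB density of Hoxc was above 88.3% and that of Hoxa above 82.4%, whereas Hoxb and Hoxd were above 32.4% and 36.8%. In MT these shares were 54.4% for Hoxa, 53.0% for Hoxb and 45.1% for Hoxd. Hoxc was above 92.5% in MT, beside the raised level of peak-free sequence on chromosome 15 given above, whose part in this share was not tested.

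Ratios between clusters within a library, which need no scaling, gave the sizes of these differences. They are not corrected for the lower share of MT reads in MB peaks over the genome. Hoxa was 3.12, 3.94 and 2.94 times as dense as Hoxb in the MB libraries and 0.98, 1.01 and 1.03 times in the MT libraries. Hoxc was 3.95, 4.88 and 4.13 times as dense as Hoxd in MB and 1.61, 1.38 and 1.48 times in MT. The ratio of Hoxa to Hoxc was 0.720 ± 0.00968 in MB and 0.733 ± 0.0676 in MT (SD, n = 3), a log2 difference of 0.02 with an SE of 0.08 (exact permutation test, two-sided, p = 0.7). Over all 6 pairs of clusters, the 5 others each had p = 0.1 in the exact permutation test, the smallest possible, and 0.12 after adjustment over the pairs.

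**Figure D2:**
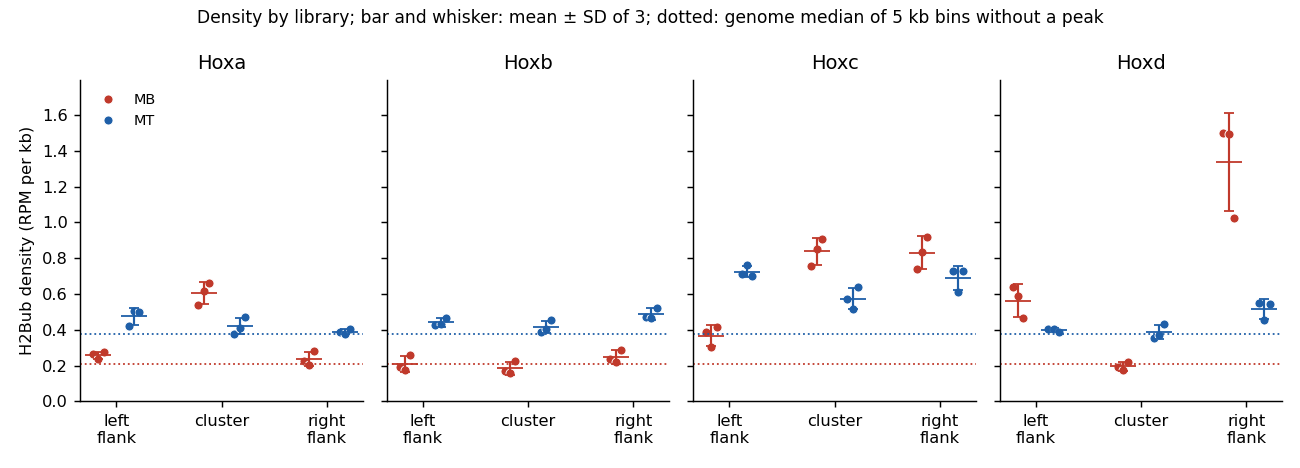
H2Bub density (RPM per kb, y axis from 0) in each cluster and in the 100 kb on its left and right. Points are libraries, bars and whiskers the mean ± SD of 3, and dotted lines the genome medians of 5 kb bins without a peak. In MB, Hoxa and Hoxc lie at 0.605 and 0.839 and Hoxb and Hoxd at 0.184 and 0.195, and the right flank of Hoxd is highest at 1.34.

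Single bins were compared over the whole genome with limma voom and Benjamini-Hochberg adjustment over the 407940 bins tested, at a threshold of 0.05. Of all bins tested, 13.4% were lower and 56.8% higher in MT. In Hoxa, 11 of 21 bins fell and 1 rose, with a median log2 fold change of -0.56. In Hoxc, 13 of 24 bins fell and 5 rose, with a median of -0.59. In Hoxb, 32 of the 34 bins tested rose and 0 fell, with a median of 1.14. In Hoxd, 15 of 19 rose and 0 fell, with a median of 0.91. The median over all bins tested was 0.74, and 65.6% of bins without a peak rose, with a median of 0.82. Bins of Hoxb and Hoxd pass the floor on low counts through their MT libraries, and without the floor 33 of 35 and 15 of 20 rose.

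Most calls of a rise depended on the scaling, and the calls of a fall grew in number with it. With scaling on genome-wide 10 kb windows, called background scaling here, the median over all bins tested was 0.05 instead of 0.74. Then 14 bins of Hoxa and 16 of Hoxc fell, where 19% of all bins and 6.34% of those without a peak did. Only 2 bins of Hoxb and 1 of Hoxd rose, where 1.21% of all bins and 1.36% of those without a peak did, and 0 fell in either. Over the 4 clusters together the split went from 24 lower and 53 higher to 30 lower and 3 higher. By this scaling the whole-cluster log2 ratios were -1.23 for Hoxa, -1.25 for Hoxc, 0.48 for Hoxb and 0.28 for Hoxd, so no cluster changed direction.

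**Figure D3:**
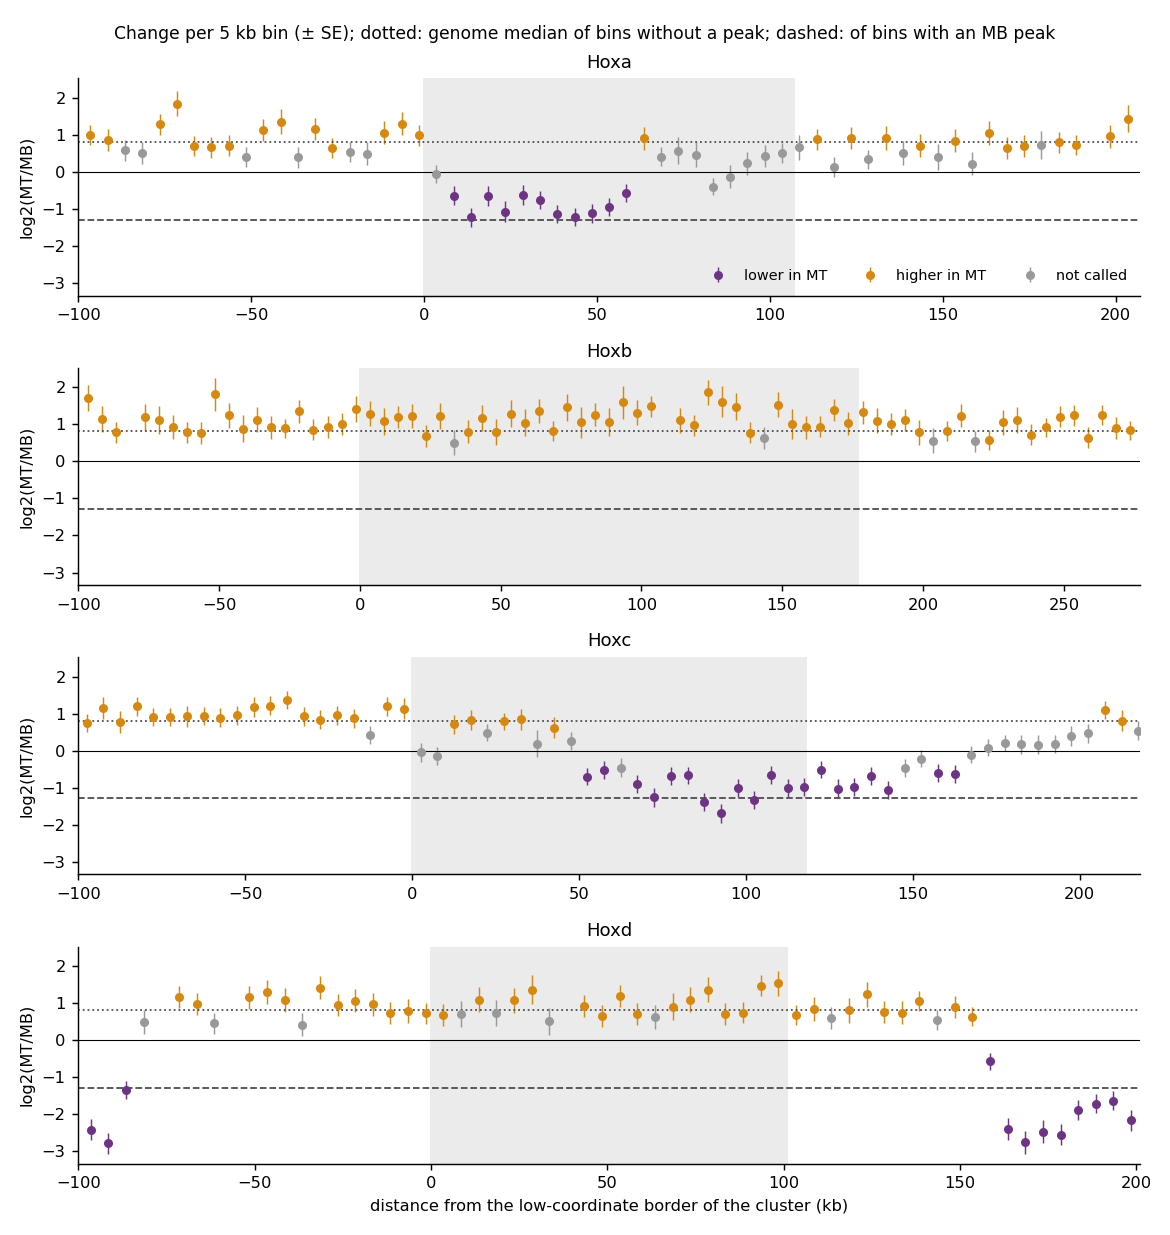
Log2 ratio of MT to MB per 5 kb bin (± SE, limma voom, scaled on total reads) against distance from the low-coordinate border (kb); grey marks the cluster. The dotted line at 0.82 is the genome median of bins without a peak and the dashed line at -1.28 that of bins with an MB peak. Lower bins lie side by side in Hoxa, in Hoxc they are interrupted by 1 bin that was not called and go on into the right flank, and in Hoxd they lie in the outer flanks only.

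Hoxa was marked in its low-coordinate side, away from the Hoxa13 end, in a run of 60 kb that stopped at a sharp edge. The first 12 bins of the cluster, chr6:52105001-52165000, had mean MB levels of 2.40 to 6.47 RPM per bin. The 9 bins after them had 0.949 to 3.795. Across the edge, the MB level went from 3.36 to 0.949 RPM between neighbouring bins, a step of 3.54-fold, whereas MT had 2.24 and 1.73, a step of 1.29-fold. All 11 lower bins of the cluster lay in the run, next to each other. The run was picked out by these values, so its levels are a description. In the MB libraries the run was 2.36, 2.98 and 2.26 times as dense as the rest of the cluster, and in the MT libraries 1.34, 1.04 and 1.08 times. MT replicate 1 had the highest of the MT ratios, below every MB ratio.

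The highest MB bin of Hoxa was chr6:52145001-52150000, with 6.14, 8.29 and 4.97 RPM in MB and 2.51, 2.60 and 3.04 in MT. The groups did not overlap there (log2 change -1.22 with SE 0.25 by limma, adjusted p = 0.0001371). This bin was picked for its MB level, so its direction was in part fixed by that choice. The other bins named here were also picked by their levels or changes, and all these p-values are descriptions. The largest fall was at chr6:52115001-52120000, which held a single MB peak and had 4.42 ± 0.232 RPM in MB and 1.82 ± 0.465 in MT (± SD, n = 3; limma gave a log2 change of -1.22 with adjusted p = 0.0002291). Of the 11 lower bins, 4 held no MB peak, where 1.51% of all peak-free bins were lower, and the falls were thus not limited to bins with a peak. The lowest MB bin, chr6:52165001-52170000, is the one just past the edge, and it passed the floor only with its MT libraries. It rose from 0.949 ± 0.13 to 1.73 ± 0.134 RPM (± SD, n = 3; limma gave a log2 change of 0.91 with adjusted p = 0.01358), but with background scaling its log2 fold change was 0.22 (limma adjusted p = 0.7187), and without MB replicate 3 its adjusted p was 0.07433. The highest MT bin, chr6:52185001-52190000, lay apart from the run, towards the Hoxa13 end, and held 2 MB peaks. It had 3.23, 3.62 and 4.53 RPM in MB and 2.63, 3.03 and 2.83 in MT (log2 fold change -0.40, limma adjusted p = 0.1166), and passed the threshold only with background scaling (-1.09, limma adjusted p = 0.0004414).

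Of the 16 MB peaks of Hoxa, 11 lay within 3 kb of the next and form a stretch at chr6:52139929-52152146, 12.2 kb long. Its density was 1.12, 1.33 and 1.03 RPM per kb in MB and 0.495, 0.487 and 0.594 in MT. It was a weak stretch beside the 5326 of at least 10 kb in the genome: 2.33% of them had a lower MB density, and 10.1% a lower share of their length in peaks. The widest MB peak, chr6:52143562-52144312, was 750 bp wide and fell from 2.09 ± 0.253 to 0.601 ± 0.0795 RPM (± SD, n = 3; limma gave a log2 change of -1.67 with SE 0.35 and adjusted p = 0.0001386). This peak was chosen on MB reads and passed the floor through its MB libraries. Its direction was thus in part fixed by that choice, and its p-value is a description. The only MT peak of the cluster, chr6:52139879-52140304, overlapped an MB peak by 275 bp, 64.7% of its length. It held 0.862, 0.667 and 0.441 RPM in MB and 0.114, 0.433 and 0.622 in MT, values that overlap.

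Hoxc was marked in its Hoxc4 side, and the signal ran on past the border of the cluster. The 10 bins from the Hoxc13 end held no MB peak and had mean MB levels of 1.54 to 3.19 RPM. The other 14, chr15:102800001-102870000, each held 1 to 7 MB peaks and had 3.11 to 8.99. At the edge the MB level went from 2.34 to 5.83 RPM between neighbouring bins, a step of 2.49-fold, and the MT level from 2.82 to 3.55, a step of 1.26-fold. In the MB libraries the run was 2.60, 3.13 and 2.54 times as dense as the rest of the cluster, and in the MT libraries 0.899, 1.11 and 1.02 times. In MT the marked side thus could not be told from the unmarked side by its density. As in Hoxa, the run was picked out by its MB levels, so its levels and calls are a description. Of the 14 bins in the run 13 fell, where 88.2% of all bins with an MB peak fell. The bin that did not pass had a log2 fold change of -0.46 (limma adjusted p = 0.09917). On the unmarked side 5 of 10 bins rose with total reads and 0 with background scaling, where 56.8% and 1.21% of all bins rose.

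The highest MB bin of Hoxc, chr15:102850001-102855000, held 7 MB peaks and 1 MT peak. It had 8.40, 10.6 and 7.99 RPM in MB and 3.31, 3.57 and 3.73 in MT, groups that do not overlap (log2 change -1.33 with SE 0.24 by limma, adjusted p = 3.411e-05). The largest fall of the 4 clusters was at chr15:102840001-102845000, from 6.68 ± 0.974 to 1.98 ± 0.488 RPM (± SD, n = 3; limma gave a log2 change of -1.69 with SE 0.26 and adjusted p = 1.615e-06). The highest MT bin, chr15:102855001-102860000, was at 3.79 ± 1.03 RPM in MT and 5.85 ± 0.774 in MB (log2 fold change -0.66, limma adjusted p = 0.01731). That call did not hold without MB replicate 1, MB replicate 2 or MT replicate 2 (limma adjusted p = 0.05085, 0.08941 and 0.1224). The lowest MB bin, chr15:102780001-102785000, rose from 1.54 ± 0.703 to 3.00 ± 1.04 RPM (log2 fold change 0.85, limma adjusted p = 0.01217). Its call did not hold with background scaling (0.17, limma adjusted p = 0.7903) or without MB replicate 1, MB replicate 2 or MT replicate 1. This bin passed the floor only with its MT libraries. All bins named in this paragraph were picked by their levels or changes, so their p-values are descriptions.

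The longest stretch of MB peaks in the 4 clusters lay in Hoxc, at chr15:102833776-102856621, with 25 peaks over 22.8 kb. Its density was 1.48, 1.70 and 1.64 RPM per kb in MB and 0.610, 0.559 and 0.711 in MT, a log2 ratio of -1.36. Over its own chromosome's peak-free bins this was 6.12 ± 1.14 times in MB and 1.27 ± 0.197 times in MT (SD, n = 3). Of the genome's stretches of at least 10 kb, 27.7% had a lower MB density. The widest MB peak, chr15:102837838-102839105 (1267 bp), had 4.20, 3.24 and 3.46 RPM in MB and 0.913, 0.541 and 1.52 in MT (log2 change -1.85 with SE 0.33 by limma, adjusted p = 3.233e-05). As in Hoxa, this peak was chosen on MB reads and passed the floor through its MB libraries, so its p-value is a description. MB peaks of Hoxc were narrower than usual for the list, with a median of 334.5 bp against 371 bp over the genome, and those of Hoxa had a median of 294.5 bp.

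Of the 3 MT peaks in Hoxc, 1 overlapped an MB peak, by 145 bp. The widest MT peak, chr15:102858532-102858848 (316 bp), had no MB peak under it and held 0.323, 0.477 and 0.378 RPM in MB and 0.685, 0.649 and 0.346 in MT, values that overlap. The peak at chr15:102792038-102792192 lay on the unmarked side and held 0.108, 0 and 0.252 RPM in MB and 0.571, 0.433 and 0.346 in MT, values that do not overlap and that come from few reads.

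On the far side of the Hoxc4 end, the 100 kb flank held 25 MB peaks and 7 MT peaks, and 7 of its 20 bins fell while 2 rose, where 13.4% of all bins fell and 56.8% rose. Its density was 0.830 ± 0.0915 RPM per kb in MB and 0.689 ± 0.0666 in MT (SD, n = 3). The flank at the Hoxc13 end held 0 MB peaks and 4 MT peaks, and 19 of its 20 bins rose while 0 fell. Of all bins 56.8% rose, and of those without a peak of either list 65.6% rose. With background scaling 10 bins of the first flank fell, and 0 bins of the second changed in either direction.

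Hoxb lay in a span without MB peaks that was much longer than the cluster. The nearest MB peaks lay 118 kb before it and 402 kb after it, a gap of 697 kb, and 791 of the 191304 gaps between MB peaks in the genome were at least as long. A count of gaps does not give the share of the genome that lies in gaps of this length, which was not computed. Lying in such a gap is therefore not shown to be unusual. Its MB bins ranged from 0.472 to 1.43 RPM and its MT bins from 1.25 to 3.32, with medians of 0.949 and 2.06. The highest MB bin, chr11:96120001-96125000, had 1.40, 1.43 and 1.45 RPM in MB and 1.83, 2.71 and 3.11 in MT (log2 fold change 0.82, limma adjusted p = 0.0104). With background scaling its log2 fold change was 0.10 (limma adjusted p = 0.869), and without MT replicate 3 its adjusted p was 0.07191.

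The largest rise of the 4 clusters was in Hoxb, at chr11:96175001-96180000, from 0.679 ± 0.126 to 2.64 ± 0.327 RPM (± SD, n = 3; limma gave a log2 change of 1.86 with SE 0.35 and adjusted p = 4.065e-05). The highest MT bin was chr11:96155001-96160000, with 0.969, 0.953 and 1.45 RPM in MB and 3.42, 3.14 and 3.39 in MT (log2 change 1.49 with SE 0.29 by limma, adjusted p = 6.648e-05). These were the 2 bins that also rose with background scaling, by 1.15 and 0.78 (limma adjusted p = 0.007775 and 0.04149), and neither held a peak of either list. The lowest MB bin, chr11:96145001-96150000, had 0.215, 0.381 and 0.818 RPM in MB and 1.48, 1.30 and 1.66 in MT (log2 fold change 1.60, limma adjusted p = 0.003337, and 0.1735 with background scaling). A bin in this cluster held a median of 10 reads per MB library and 20 per MT library. The bins of largest rise, highest MT level and lowest MB level passed the floor only with their MT libraries, where they are high. They were also picked by their levels or changes, so their p-values are descriptions. Without the floor their log2 fold changes were 1.87, 1.49 and 1.61.

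Hoxd was equally bare, but it lay between 2 stretches of MB peaks. The cluster and its near surroundings held no peak of either list over 249 kb, from 87.6 kb before the cluster to 59.9 kb after it. Beyond the Hoxd13 end, a stretch of 33 MB peaks at chr2:74386606-74416388, which begins outside the flank, had 2.61, 2.72 and 1.73 RPM per kb in MB and 0.495, 0.465 and 0.457 in MT. Beyond the Hoxd1 end, where Mtx2, which encodes a protein of mitochondrial import, is the next named protein-coding gene, a stretch of 37 MB peaks lay at chr2:74664914-74707507. It had 3.22, 3.24 and 2.06 RPM per kb in MB and 0.651, 0.447 and 0.712 in MT. MB and MT did not overlap in either stretch, and the log2 ratios were -2.32 and -2.23. Of the genome's stretches of at least 10 kb, 65.0% had a lower MB density than the first and 78.9% a lower one than the second.

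The stretch beyond the Hoxd1 end also began at an edge in MB. The bin chr2:74655001-74660000 had 1.76 RPM in MB, the next 3.72 and the one after it 19.03. In MT these bins had 2.75, 2.50 and 3.85 RPM. Of the flank bins of Hoxd, 12 fell in all, 3 on the Hoxd13 side and 9 on the Hoxd1 side, and 21 rose, where 13.4% of all bins fell and 56.8% rose. With background scaling the same numbers fell on each side and 0 rose. In the cluster itself the highest MB bin, chr2:74590001-74595000, had 1.34 ± 0.267 RPM in MB and 2.26 ± 0.567 in MT (log2 fold change 0.74, limma adjusted p = 0.02208). That call did not hold with background scaling (0.01, limma adjusted p = 0.9856) or without MB replicate 2 or MT replicate 3. The highest MT bin, chr2:74595001-74600000, was next to it and rose from 1.13 ± 0.231 to 3.05 ± 0.196 RPM (± SD, n = 3; limma gave a log2 change of 1.47 with SE 0.29 and adjusted p = 7.633e-05). It was the only bin of Hoxd that also rose with background scaling (0.80, limma adjusted p = 0.03784). The next bin, chr2:74600001-74605000, had the largest log2 fold change, 1.53 (limma adjusted p = 0.0002992), and 0.85 with background scaling (limma adjusted p = 0.05591). Both lie at the Hoxd1 border, and both passed the floor only with their MT libraries, so their p-values are descriptions. The lowest MB bin, chr2:74540001-74545000, had 0.678 RPM in MB and 1.61 in MT and was below the floor.

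Each cluster was then set against its own flanks, a ratio within a library that needs no scaling. Against flank bins without a peak, Hoxa was 2.20, 2.77 and 2.37 times as dense in MB and 0.932, 0.928 and 1.03 times in MT. Hoxc was 1.79, 2.29 and 1.76 times as dense in MB and 0.825, 0.748 and 0.922 times in MT. The excess of Hoxa and Hoxc over the peak-free bins of their flanks that was present in each MB library was thus gone or small in each MT library. Those bins were chosen for having no peak. The whole right flank of Hoxc was close to the cluster in MB, at 0.830 against 0.839 RPM per kb. Hoxb was below its peak-free flanks in all 6 libraries, at 0.832 ± 0.00759 in MB and 0.909 ± 0.0392 in MT (SD, n = 3). Hoxd was at 0.882 ± 0.0553 and 0.948 ± 0.136. The exact permutation test (two-sided, n = 3 per group) gave p = 0.1 for Hoxa, Hoxb and Hoxc and p = 0.6 for Hoxd. Against whole flanks, peaks included, the log2 differences between MT and MB were -1.34 for Hoxa, -0.79 for Hoxc, 0.15 for Hoxb and 2.03 for Hoxd, each with p = 0.1 (exact permutation test). With flanks of 50 kb the value for Hoxd was 0.066 (p = 0.8, exact permutation test) and that for Hoxc -0.49. The flanks of Hoxd themselves went from 0.951 ± 0.18 RPM per kb in MB to 0.457 ± 0.0258 in MT (SD, n = 3).

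**Figure D4:**
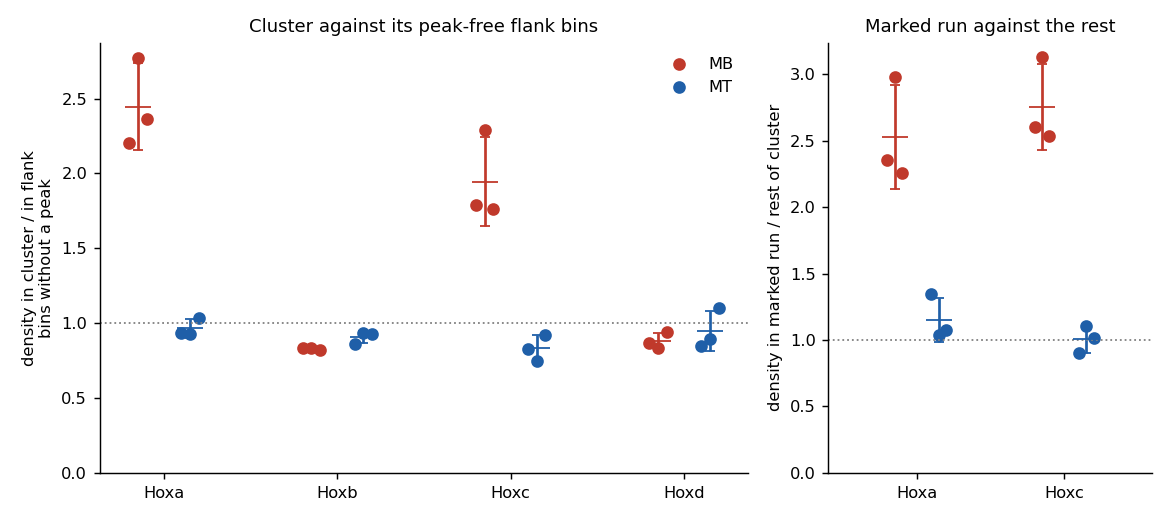
Left, density of each cluster over that of its flank bins without a peak. Right, density of the marked run of Hoxa and Hoxc over the rest of the cluster. Points are libraries, bars and whiskers the mean ± SD of 3, and the y axes start at 0. On the left, MB values of Hoxa and Hoxc lie at 1.76 or above and the highest MT value is 1.10. On the right, MB values lie at 2.26 or above and MT values at 1.34 or below.

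The sequences under the MB peaks were denser than the rest of the cluster in myotubes as well. In Hoxa, the 16 MB peaks were 4.56, 4.81 and 3.11 times as dense as the rest of the cluster in MB and 1.78, 1.23 and 1.50 times in MT. In Hoxc, the 44 MB peaks were 4.20, 4.08 and 3.35 times as dense in MB and 1.32, 1.63 and 1.46 times in MT. The peaks were chosen on MB reads, so the MB ratios are a description, but the MT libraries had no part in that choice, and all 6 of their ratios were above 1. Over the genome, MB peaks were 12.95, 15.5 and 11.3 times as dense as the rest in MB. In MT these genome ratios were 2.56, 1.75 and 2.49, above those of Hoxa and Hoxc in each library. The rest of a cluster and the rest of the genome are different references, however. In MT the rest had 0.409 RPM per kb in Hoxa and 0.539 in Hoxc. The genome median of peak-free bins in MT was 0.376. The part of this difference in the lower ratios was not tested. No input library was analysed, so the part of mappability or base composition in the MT ratios was not tested. Peaks held 18.7% ± 3.44 of the reads of Hoxa in MB and 7.7% ± 1.31 in MT, and 39.1% ± 2.92 and 19.6% ± 1.69 of those of Hoxc (SD, n = 3).

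Tested as single regions, few of the peaks had enough reads. In Hoxa 1 of 16 peak regions passed the floor, and in Hoxc 7 of 46, and each of these fell, as did 98.8% of the regions tested in the genome, where 0.0199% rose. These regions passed through their MB libraries, so their direction follows in part from the floor. Without the floor, 15 of 16 regions fell in Hoxa and 0 rose, and 32 of 46 fell in Hoxc and 1 rose, the MT peak on the unmarked side. Over the genome, 158905 of 202354 regions fell and 6399 rose without the floor. The regions come from peaks chosen on these same libraries, so their direction is in part fixed without the floor as well. The median log2 fold changes were then -1.64 in Hoxa and -1.54 in Hoxc, against -1.76 over all regions of the genome. For bins with an MB peak, the medians were -1.03 in Hoxa and -0.94 in Hoxc, against -1.28 over the genome, where 88.2% of such bins were lower and 0.086% higher.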

How the data were processed

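Reads of 6 H2Bub libraries and 1 peak list per group were used as deposited by the authors. The files hold, per the labels and from their values, other data than a count table: a chromosome, a coordinate and a strand for every mapped read (0 repeated lines in each library), and the boundaries of each peak with no score. The build is mm9, per the submitters' processing notes. The sources used here do not give the aligner, filters, read length, peak caller or its threshold. Whether positions count from 0 or 1 is not stated, so coordinates may be off by 1 bp.

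Reads were counted here in 5 kb bins on a fixed grid, with a bin assigned by its midpoint, in the merged regions of both peak lists and in the cluster intervals. Library size was the reads on chromosomes 1 to 19 and X. Bins needed 10 reads at the median library size in 3 libraries and 15 in all. Per bin, MT was tested against MB by voom and the two-sided moderated statistic of limma 3.58.1 under R 4.3.3, checked on simulated counts, with Benjamini-Hochberg adjustment. Background scaling used TMM factors over 10 kb windows. Single values had exact two-sided permutation tests. Counting and exact tests were done in Python 3.11.15 (pandas 2.3.3, NumPy 2.4.6) and plots in matplotlib 3.10.9. Named bins are, in each cluster, the highest in MB and in MT, the lowest in MB and the called bins with the largest change each way, with the widest peaks and longest stretches. Being picked by these levels or changes, they have p-values that are descriptions. The clusters, lists and tests were chosen with earlier results of these data known. Cluster pairs, marked runs and peak-to-rest ratios were added after the data were seen. RefSeq matched all 39 Hox genes by symbol.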

Additional observations from a re-analysis of the deposited data

How the results depend on the processing

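Whole-cluster log2 ratios kept their direction in each of the 4 clusters under background scaling, borders moved by 5 kb either way, shifted positions and each library left out. They ranged from -0.61 to -0.456 for Hoxa, 1.075 to 1.337 for Hoxb, -0.625 to -0.471 for Hoxc and 0.902 to 1.072 for Hoxd with 1 library left out. Against flanks the same ranges were -1.415 to -1.241, 0.127 to 0.172, -0.863 to -0.736 and 1.873 to 2.281. With 50 kb flanks, which leave out the marked stretches beside Hoxd, its value was 0.066 against 2.025 (exact permutation test, p = 0.8). Hoxc had -0.49 with 50 kb flanks, -1.54 against the left flank alone and -0.28 against the right, and Hoxb 0.081 against the left alone; signs did not change in any cluster. With background scaling, 0 bins rose in Hoxa, 2 in Hoxb, 0 in Hoxc and 1 in Hoxd. In 10 kb bins, fewer by construction, 5 bins fell and 0 rose in Hoxa, 18 rose in Hoxb, and 7 fell and 2 rose in Hoxc. With the grid moved by 2500 bp 2 bins of Hoxa rose, against 1. With 1 library left out, lower bins numbered 7 to 10 in Hoxa (7 without MB replicate 2 and without MB replicate 3) and 10 to 12 in Hoxc. Higher bins numbered 1 to 2 in Hoxa (2 without MB replicate 3 or MT replicate 3), 24 to 32 in Hoxb, 2 to 5 in Hoxc (2 without MB replicate 2, 3 without MT replicate 1) and 10 to 13 in Hoxd. No bin of Hoxb or Hoxd fell in these leave-one-out fits. Of the peak regions, 1 to 2 fell in Hoxa (2 without MB replicate 1, MT replicate 1 or MT replicate 3) and 7 to 11 in Hoxc (11 without MT replicate 1 or 2), and 0 rose. Without the floor 15 regions of Hoxa and 32 of Hoxc fell and 1 of Hoxc rose, where 158905 of 202354 regions of the genome fell and 6399 rose. The upper 50% of peaks by width left 5 MB peaks in Hoxa, and 18 MB peaks and 1 MT peak in Hoxc. The 2 MT peaks that overlapped an MB peak became 1 under a minimum overlap of 50% of each peak. The log2 difference of the ratio of Hoxa to Hoxc, 0.02, ranged from -0.044 (without MT replicate 2) to 0.089 (without MT replicate 1). The cause of these changes was not tested, beyond fewer bins or regions where stated. With the replicate block 11 bins fell and 2 rose in Hoxa, 13 fell and 4 rose in Hoxc, 32 rose in Hoxb and 16 in Hoxd, and whole-cluster values were -0.527, 1.186, -0.547 and 0.984 (exact sign-flip test, p = 0.25, the smallest 3 pairs can give). Same-numbered libraries had correlations of deviations of 0.005, -0.114 and 0.113, and replicate numbers were therefore not treated as pairs. Depth limits single peaks most.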

Other observations

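Along the clusters, the shape of the MT profile followed that of MB most in Hoxa. Across its 21 bins of 5 kb, mean MT and mean MB levels had a Pearson correlation of 0.634 (Spearman 0.681). The values were 0.548 and 0.554 over 35 bins in Hoxb, 0.474 and 0.441 over 20 bins in Hoxd, and 0.243 and 0.183 over 24 bins in Hoxc. Bins of 1 cluster share their libraries and neighbours, and mappability and base composition act on both groups alike, so these are descriptions. Hoxb and Hoxd, which had no MB peak, thus had higher values than Hoxc, where 14 bins held one.

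The 7 MT peaks in the flank beyond the Hoxc4 end included 1 that overlapped an MB peak, by 55 bp. That peak, chr15:102895831-102896076, lay in a region with 0.741 ± 0.206 RPM in MB and 0.715 ± 0.187 in MT (SD, n = 3; log2 fold change 0.01 without the floor, limma adjusted p = 0.9747). The 4 MT peaks in the flanks of Hoxb had no MB peak under them and held 0.131 to 0.184 RPM in MB and 0.346 to 0.483 in MT on average, which is few reads in each library. They were called on MT reads, so that difference is a description.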
